A study of Rattus norvegicus with 15 samples.

Results

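The genes described here encode 7 proteins of bone matrix other than its main collagen: Bglap, Ibsp, Spp1, Sparc, Ifitm5, Postn and Cthrc1. They were taken by gene symbol from the deposited expression table of 22468 genes, and all 7 were found and passed the filter on low counts. The tissue was bone of female Sprague-Dawley rats, measured by bulk sequencing of poly(A) RNA, and 15 libraries fell into 5 groups of 3. Blank rats carried no treatment. Model rats had been ovariectomized, an operation that takes away most oestrogen, and their condition is labelled osteoporosis. The SYT, YJT and YJZYT rats were also ovariectomized, and what else they received is known here only by those condition names. The series concerns Zhuanggu Zhitong Capsule, and which group was given it is not labelled. No group is labelled as sham-operated, and the sources used here do not give the bone sampled, the age of the rats or any pooling of animals. Libraries are named by group and replicate number, and nothing in the labels says that they came from separate animals, so p-values measure the spread between these libraries.

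Gene counts summed to between 64472700 and 74255667 per library. The tissue label was checked with 6 osteoblast marker genes, all detected in every library, whose summed level ranged from 2281 to 77670 CPM (counts scaled to library depth). YJT3, at 2281 CPM, and YJZYT3, at 2621 CPM, stood apart at the low end of that sum, while the other 13 libraries held 9769.7 CPM or more. Col1a1 made up most of the sum, at 2109 CPM in YJT3 and 75016 CPM in SYT3. The other 5 markers alone also placed YJT3 and YJZYT3 lowest, at 173 and 190.3 CPM, against 553 CPM or more elsewhere. The same 2 libraries were the lowest for the summed markers of osteocytes (69.6 and 276 CPM), osteoclasts (1112 and 1148 CPM) and chondrocytes (150.4 and 19.1 CPM). For erythroid markers YJZYT3 was the highest at 73859 CPM, with YJZYT2 next at 70507 CPM, and YJT3 was at 28654 CPM. Sums for other blood cells are given further below. For many edgeR comparisons that use these libraries, values without them are given below. The DESeq2 and limma fits were not repeated without them, and marker list fold changes are given with them only. The labels name no batch.

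Osteoblasts secrete type I collagen together with a smaller set of proteins that bind mineral, cells or the collagen fibril. Osteocalcin, encoded by Bglap, needs a vitamin K-dependent carboxylation to bind mineral and also circulates as a marker of bone formation. Bone sialoprotein (Ibsp) and osteopontin (Spp1) belong to the SIBLING family of acidic phosphoproteins, which carry an integrin-binding RGD motif. Osteonectin (Sparc) binds collagen and calcium, and Ifitm5 encodes a small osteoblast membrane protein that is mutated in a form of osteogenesis imperfecta. Periostin (Postn) is a matricellular protein of periosteum, tendon and other collagen-rich connective tissue, and Cthrc1 encodes a secreted protein found where collagen is being laid down. Runx2, the factor that commits cells to the osteoblast lineage, binds a Runt core motif.

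The deposited table gives coordinates without a genome build, and the sources used here name none. There, Bglap (ENSRNOG00000019607) lies at chr2:187741770-187742747, Ifitm5 (ENSRNOG00000014923) at chr1:213744796-213745748 and Sparc (ENSRNOG00000012840) at chr10:40742400-40764185, each on the minus strand. Postn (ENSRNOG00000012660) lies at chr2:143656793-143688087 and Cthrc1 (ENSRNOG00000004578) at chr7:77966722-77977004, both on the plus strand. Spp1 (ENSRNOG00000043451, chr14:6673686-6679901) and Ibsp (ENSRNOG00000002158, chr14:6801204-6813945) share the minus strand of chromosome 14. The other SIBLING genes of the same cluster are Mepe at 6782012 to 6793558, Dmp1 at 6889856 to 6900733 and Dspp at 6926976 to 6933070.

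The promoters of 6 of the 7 genes were read from RefSeq (GRCr8). The upstream 250 bases of 4 of them are shown as examples. Over the 15 libraries, Bglap, Ibsp and Sparc were correlated with each other at r of 0.85 to 0.95, and Postn with them at 0.45 to 0.55. Correlation does not single these genes out, since Sparc with Ifitm5, which is not shown, had an r of 0.98. Without YJT3 and YJZYT3, r was 0.52 for Bglap with Ibsp and 0.46 for Bglap with Postn. The coordinates are chr2:176137319-176137568 for Bglap, chr14:5757243-5757492 for Ibsp and chr10:40038817-40039066 for Sparc, all on the minus strand. For Postn they are chr2:140677811-140678060 on the plus strand. Capitals mark every match to a searched motif, on either strand.
Bglap: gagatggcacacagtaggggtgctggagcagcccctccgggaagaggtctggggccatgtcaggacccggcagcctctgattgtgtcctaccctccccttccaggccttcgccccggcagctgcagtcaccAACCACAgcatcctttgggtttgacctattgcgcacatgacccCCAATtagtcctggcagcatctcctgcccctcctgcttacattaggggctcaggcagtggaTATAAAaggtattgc
Ibsp: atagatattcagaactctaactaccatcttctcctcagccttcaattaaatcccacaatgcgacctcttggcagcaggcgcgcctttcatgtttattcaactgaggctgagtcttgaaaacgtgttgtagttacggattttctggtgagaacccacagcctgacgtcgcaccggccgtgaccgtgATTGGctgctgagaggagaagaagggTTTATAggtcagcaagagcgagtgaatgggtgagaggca
Sparc: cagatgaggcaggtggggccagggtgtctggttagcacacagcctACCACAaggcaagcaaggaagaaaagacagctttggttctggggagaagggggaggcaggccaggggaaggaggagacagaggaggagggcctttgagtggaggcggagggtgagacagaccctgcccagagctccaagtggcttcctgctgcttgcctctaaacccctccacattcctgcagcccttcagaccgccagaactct
Postn: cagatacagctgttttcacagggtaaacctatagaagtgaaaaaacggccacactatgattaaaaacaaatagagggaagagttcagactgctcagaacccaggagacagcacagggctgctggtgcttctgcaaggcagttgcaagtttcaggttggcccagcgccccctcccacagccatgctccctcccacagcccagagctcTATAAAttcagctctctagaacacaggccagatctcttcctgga
The motifs searched were the Runt core ACCACA with its longer form AACCACA, which contains it, the TATA box TATAAA, the homeodomain core TAATTA, the GC box GGGCGG and the CCAAT box CCAAT. Windows of 300 bases, including 50 after the start, were searched on both strands. The Runt core was in 2 of the 6 windows, Bglap at 118 bases upstream and Sparc at 205, and in 17.3% of all 33469 windows. The longer Runt form was in Bglap alone among the 6 and in 5.57% of all windows. TATAAA was in 4 of the 6, at 15 bases upstream in Bglap, 44 in Postn, 204 in Spp1 and, on the opposite strand, 39 in Ibsp, against 14.2% of all windows. CCAAT was in Bglap and, on the opposite strand, in Ibsp, against 37.5%. TAATTA and GGGCGG were in 0 of the 6, against 5.36% and 33.1% of all windows. These matches are descriptions of letters and not of bound sites.

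Compared per length, as FPKM (fragments per kilobase of transcript, scaled to library depth), the 7 genes fell into an abundant set and a much less abundant set. Over the 15 libraries the mean was 3227 FPKM for Sparc, 2302 for Bglap, 1470.0 for Spp1 and 685 for Ibsp. It was 51.6 FPKM for Postn, 47.0 for Cthrc1 and 38.2 for Ifitm5. The median rank among all 22468 genes was 21 for Sparc, 28 for Bglap, 43 for Spp1 and 110 for Ibsp, and 1331, 1466 and 1820 for Cthrc1, Postn and Ifitm5. Sparc was the highest of the 7 in 12 libraries, and Bglap in Blank1, YJT3 and YJZYT3. Ibsp was the fourth in every library. Together the 7 genes took from 0.195% of all counts in YJT3 (95% Wilson interval 0.194 to 0.196, counting error only) to 3.26% in SYT3 (3.25 to 3.26). Their group means were 1.38% ± 0.623 for Blank, 1.75% ± 0.580 for Model, 1.80% ± 1.27 for SYT, 0.854% ± 0.664 for YJT and 0.892% ± 0.604 for YJZYT (SD, n = 3). In bulk bone, fewer cells of a type and less RNA per cell cannot be told apart.

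**Figure D1:**
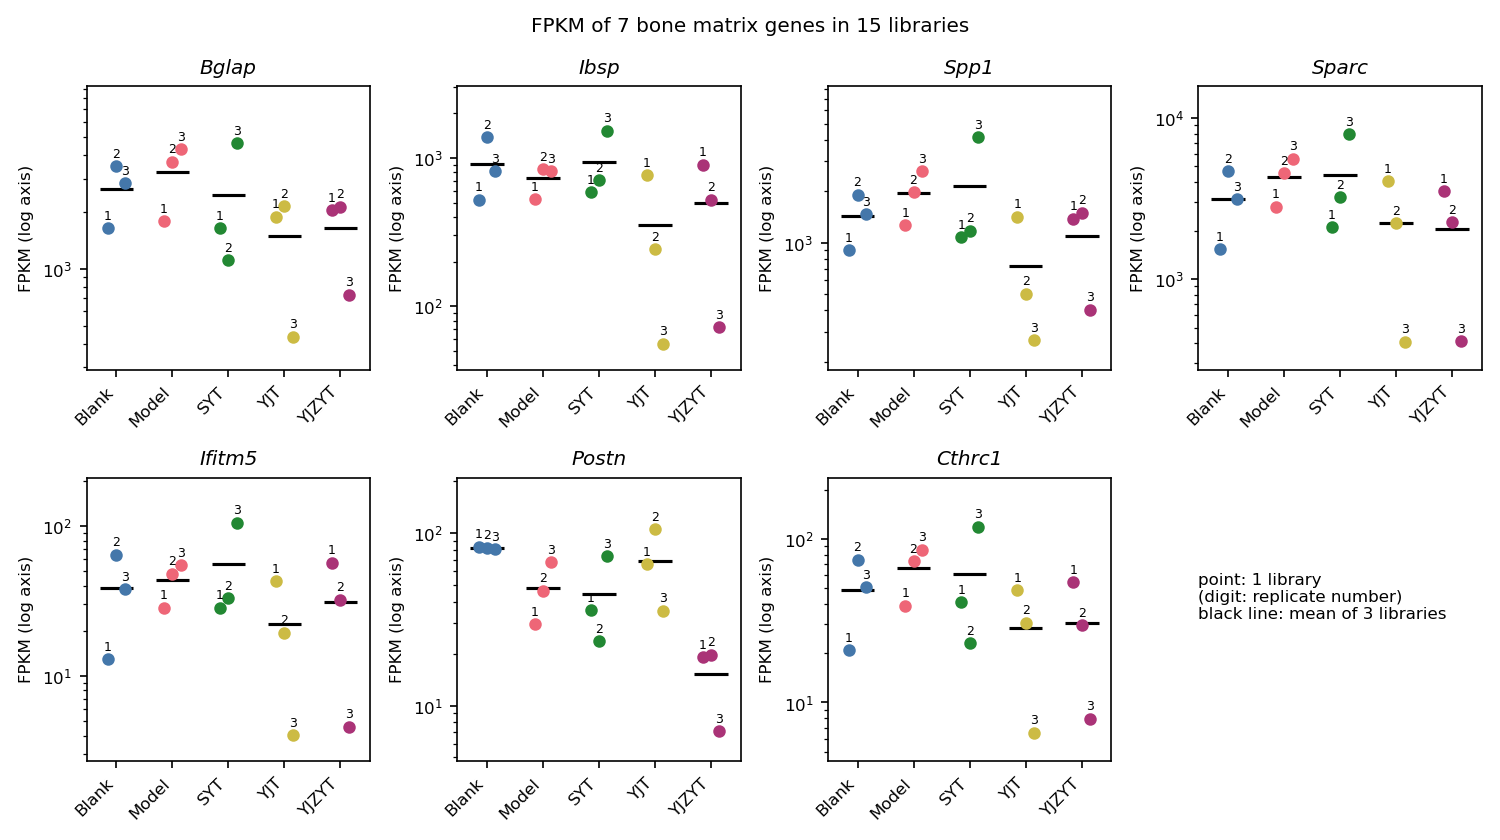
FPKM of each gene (log axis) in the 15 libraries by group, with the replicate number above each point and the group mean as a black line. In 6 of the 7 panels SYT3 is the highest point and YJT3 and YJZYT3 are the lowest points, while the Postn panel shows 3 close Blank points and a low YJZYT group.

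Bglap, the gene of the mineral-binding osteocalcin, was at 1639, 3487 and 2844 FPKM in Blank1 to Blank3 and at 1781, 3692 and 4311 FPKM in Model1 to Model3. It was at 1643, 1113 and 4642 FPKM in SYT1 to SYT3, at 1889.6, 2146 and 437 FPKM in YJT1 to YJT3, and at 2044, 2129 and 729 FPKM in YJZYT1 to YJZYT3. The order of group means was Model, Blank, SYT, YJZYT, YJT, and each neighbouring pair overlapped. The highest library was 10.6 times the lowest, the narrowest span of the 7 genes.

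Of the SIBLING genes, Ibsp was at 522, 1382 and 817 FPKM in Blank1 to Blank3 and at 527, 839 and 817 FPKM in Model1 to Model3. It was at 588, 707 and 1525 FPKM in SYT, 765, 241 and 55.9 FPKM in YJT, and 900.3, 523 and 72.6 FPKM in YJZYT, in replicate order. Its highest library stood 27.3 times above its lowest, the widest span of the 7. Spp1 was at 904, 1916 and 1468 FPKM in Blank and at 1263, 1978 and 2629.8 FPKM in Model, in the same order. It was at 1081, 1174 and 4159.8 FPKM in SYT, at 1419, 502 and 268 FPKM in YJT and at 1382, 1501 and 404 FPKM in YJZYT. For both genes SYT had the highest mean and YJT the lowest, and every neighbouring pair of groups overlapped. YJT2 was low for both, at 241 FPKM for Ibsp and 502 FPKM for Spp1, while Bglap in YJT2 stood at 2146 FPKM, the highest of the YJT group.

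Sparc, the collagen- and calcium-binding osteonectin gene, was at 1530.1, 4683 and 3145 FPKM in Blank1 to Blank3 and at 2809, 4548 and 5601 FPKM in Model1 to Model3. It was at 2106, 3237 and 7895 FPKM in SYT, at 4049.8, 2217 and 409.5 FPKM in YJT and at 3508, 2255 and 412 FPKM in YJZYT. Its group means ran in the order SYT, Model, Blank, YJT, YJZYT, and each neighbouring pair overlapped. Cthrc1, found where collagen is laid down, was at 20.8, 74.7 and 50.6 FPKM in the Blank libraries and at 39.0, 73.0 and 85.8 in the Model libraries. SYT held Cthrc1 at 41.2, 23.0 and 118 FPKM, YJT at 48.7, 30.8 and 6.55, and YJZYT at 54.3, 29.7 and 7.95. Ifitm5, which is among the more osteoblast-restricted genes, was at 12.9, 64.5 and 37.8 FPKM in Blank and at 28.5, 48.0 and 54.6 in Model. It was at 28.6, 32.9 and 105 FPKM in SYT, at 42.7, 19.4 and 4.03 in YJT and at 57.0, 32.3 and 4.58 in YJZYT. For both genes, as for Bglap, Ibsp, Spp1 and Sparc, SYT3 was the highest library, and YJT3 and YJZYT3 were the lowest. The lowest count behind any of these values was 130 reads, for Ifitm5 in YJT3.

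Postn had another pattern. It was at 83.4, 82.1 and 80.5 FPKM in Blank1 to Blank3 and at 29.6, 46.3 and 67.9 FPKM in Model1 to Model3. It was at 35.8, 23.5 and 73.5 FPKM in SYT, 66.0, 104.7 and 35.4 FPKM in YJT, and 19.0, 19.7 and 7.11 FPKM in YJZYT. In FPKM the Blank libraries lay within 1.04 times of each other, and all 3 lay above the 3 Model libraries. In CPM they were less close, at 279.5, 303.5 and 266.5 in Blank1 to Blank3. All 3 YJZYT libraries lay below every library of the other 4 groups, so YJZYT overlapped with no other group. Against single groups, 5.57% to 12.7% of all genes tested were lower in YJZYT with no overlap in CPM. The share against all 4 groups at once was not counted. The order of means was Blank (82.0 ± 1.42), YJT (68.7 ± 34.7), Model (47.9 ± 19.2), SYT (44.3 ± 26.1) and YJZYT (15.3 ± 7.09 FPKM, SD, n = 3), and YJZYT was apart from its neighbour SYT while the other neighbours overlapped. YJT3, the lowest library for the other 6 genes, held Postn at 35.4 FPKM, above SYT2, Model1 and all of YJZYT.

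**Figure D2:**
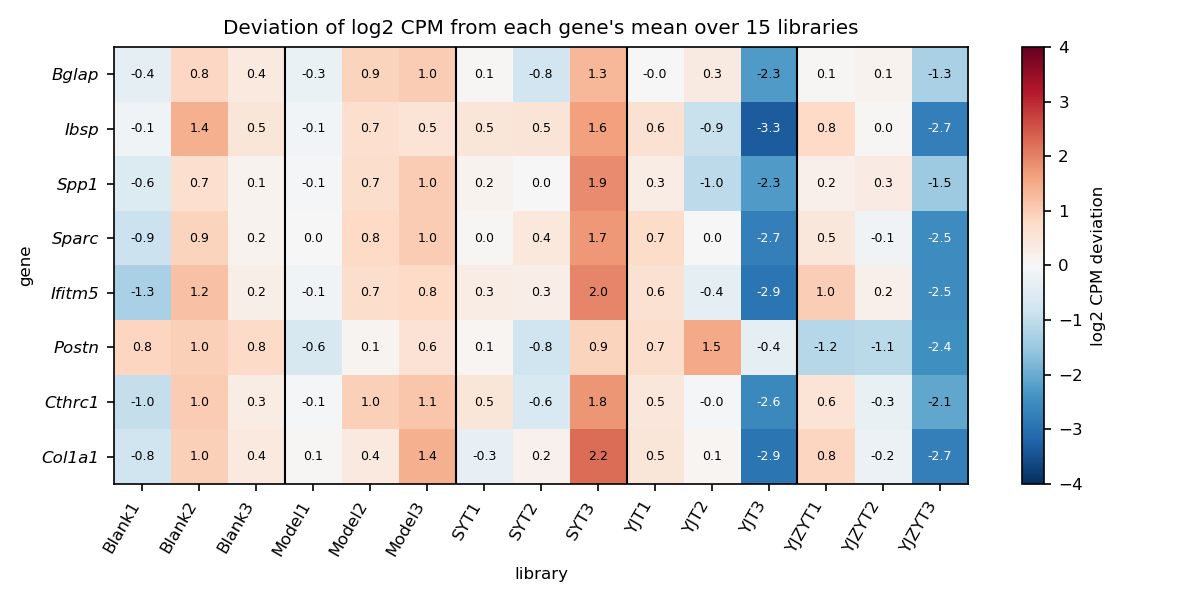
Deviation of log2 CPM from each gene's mean over the 15 libraries, for the 7 genes and Col1a1 (rows) in each library (columns). In YJT3 the 6 genes other than Postn deviate by -3.32 to -2.27 and Postn by -0.36, and in YJZYT1 those 6 deviate by 0.05 to 0.98 and Postn by -1.15.

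The comparison of Model with Blank sets ovariectomized rats beside untreated rats that are not labelled as sham-operated. Their libraries also differed in other tissue: the skeletal muscle sum was 202 to 780 CPM in Model and 3899.8 to 5964 in Blank. The 8 tendon, periosteum and fibroblast markers were all lower in Model, with a median log2 fold change of -0.25. Sparc, Spp1, Cthrc1, Bglap and Ifitm5 had higher fitted values in Model, by 0.45 (SE 0.82), 0.44 (SE 0.68), 0.42 (SE 0.80), 0.29 (SE 0.66) and 0.16 (SE 0.89) on the log2 scale. Ibsp and Postn had lower values, with log2 fold changes of -0.33 (SE 0.86) and -0.77 (SE 0.51). None passed the test: edgeR's quasi-likelihood test called 0 of the 7 at an adjusted p of 0.05, with adjusted p from 0.78 to 0.99, and 0 had an unadjusted p under 0.05. DESeq2 and limma also called 0 of the 7. edgeR called 0.0227% of the 17657 genes tested. The median of the 7 log2 fold changes was 0.29, and that of all genes tested was 0.02. Postn was the single member whose groups did not overlap, lower in Model, a pattern held in that direction by 7.99% of all genes tested.

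Between each further ovariectomized group and Model, edgeR again called 0 of the 7 genes and 0% of all genes, and DESeq2 and limma called 0 of the 7. In SYT against Model, 6 genes had higher values and Bglap a lower one, with log2 fold changes from -0.18 to 0.59 and a median of 0.24, and adjusted p of 1 in edgeR. With no scaling factors that split was 4 higher and 3 lower, since Postn and Cthrc1 turned, and the median of all genes moved by -0.25. In YJT against Model, 6 genes had lower values, from -1.26 (SE 0.69) for Spp1 to -0.77 (SE 0.82) for Sparc, and Postn a higher one, at 0.73 (SE 0.51), with edgeR adjusted p from 0.775 to 0.885. Single libraries moved these values. Without YJT1, Ibsp was at -2.04 and Spp1 at -2.14, and without YJT3 they were at -0.35 and -0.84. Without YJT2, Postn was at 0.17. In YJZYT against Model all 7 values were lower, from -1.53 (SE 0.52) for Postn to -0.38 (SE 0.89) for Ifitm5, with edgeR adjusted p from 0.638 to 0.946. The median over the 7 genes was -0.87 in YJT and -0.88 in YJZYT, and over all genes -0.02 and -0.07. These comparisons share the Model libraries. Without YJT3 and YJZYT3 the medians over the 7 were -0.35 and -0.49, and in YJZYT Ibsp and Ifitm5 turned to 0.06 and 0.12. Without SYT3, the values of Spp1, Sparc, Ifitm5, Postn and Cthrc1 in SYT against Model turned to between -0.72 and -0.24.

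**Figure D3:**
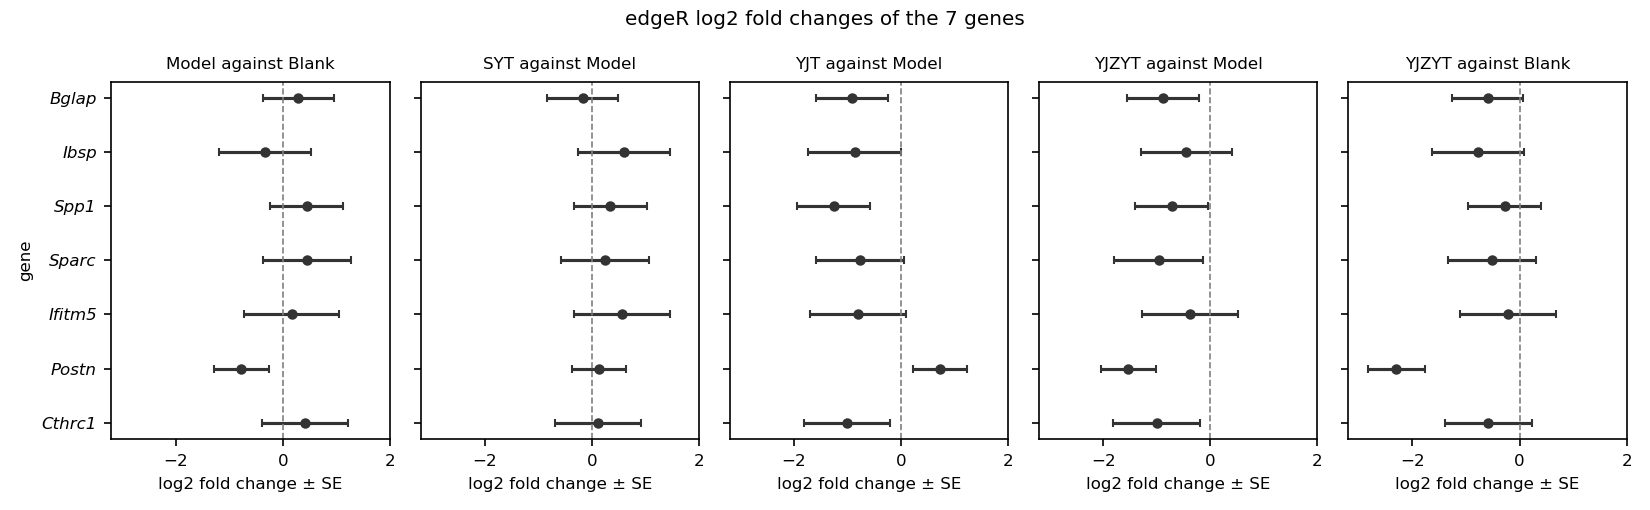
Fitted edgeR log2 fold change (point) and standard error (bar) of each gene in 5 comparisons, with no change as a dashed line. The bars of most genes cross or approach the line, and the Postn point in YJZYT against Blank, at -2.30, lies farthest from it.

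Among the other comparisons, edgeR called 0 of the 7 genes and 0% of all genes in SYT against YJT, YJZYT against SYT and YJZYT against YJT, and in SYT and YJT against Blank, 2 comparisons added after the data were seen. Over the comparisons in which edgeR called 0 genes, between 538 and 1607 genes had an unadjusted p under 0.05, and DESeq2 called between 8 and 388. Spp1 was higher in SYT than in YJT by 1.60 (SE 0.69) on the log2 scale, with an unadjusted p of 0.0374 and an edgeR adjusted p of 0.931. That value was 0.74 without SYT3, 2.49 without YJT1 and 1.19 without YJT3. A test of any difference among the 5 groups called 0 of the 7 and 0.0227% of all genes in edgeR, with Postn at an unadjusted p of 0.0084 and an adjusted p of 0.435. Without YJT3 and YJZYT3 that edgeR test also called 0 of the 7.

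Postn had lower fitted values in YJZYT than in each of the other 4 groups. The log2 fold change was -2.30 (SE 0.53) against Blank, a comparison added after the data were seen, with an edgeR adjusted p of 0.0769. It was -2.25 (SE 0.53) against YJT, -1.66 (SE 0.52) against SYT and -1.53 (SE 0.52) against Model, with edgeR adjusted p of 0.158, 0.409 and 0.638. In edgeR none of these passed, and 0.374% of all genes passed in YJZYT against Blank. DESeq2 called Postn in YJZYT against Blank (adjusted p 0.000615), where it called 4.13% of all genes, and against YJT (adjusted p 0.00139), where it called 2.2%. It also called Postn over the 5 groups together (adjusted p 0.0126), with 3.43% of all genes. limma called Postn in YJZYT against Blank on log2(FPKM + 1) with an adjusted p of 0.017 and 2.24% of all genes called, and on log2(FPKM + 0.1) with an adjusted p of 0.0255 and 2% called. Lower values with no overlap between groups were held by 12.7% of all genes in YJZYT against Blank, 7.59% against YJT, 6.56% against SYT and 5.57% against Model. The DESeq2 and limma calls of Postn were not repeated without YJT3 and YJZYT3. Without these 2 libraries, edgeR gave Postn -1.98 (SE 0.48) against Blank with an adjusted p of 0.292. The values against YJT, SYT and Model were then -2.28, -1.33 and -1.21, with edgeR adjusted p of 0.397, 0.989 and 1.

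Markers of tendon, periosteum and fibroblasts were low in the same group. The sum of 8 such genes ran from 137 to 502 CPM in YJZYT, against 1269 to 1507 in Blank, 774 to 1396 in Model, 834 to 1949 in SYT and 530.2 to 1889 in YJT. Col3a1 alone made up most of the sum in these groups, with a mean of 1043 CPM in Blank and 180 in YJZYT. All 8 had lower fitted values in YJZYT than in Blank, the median of their log2 fold changes being -1.59, and 1 of them, Col3a1, passed in edgeR. The median of all genes tested was -0.0049. All tested markers were lower there also for skeletal muscle (8 genes, median -3.78), adipocytes (6, -0.93), osteocytes (6, -0.90), endothelium (5, -0.82) and macrophages (6, -0.60). Erythroid markers were higher in 5 of 5, and neutrophil and B cell markers each in 5 of 6. Tnmd, a defining tendon gene, was at 0 in at least 1 library. The skeletal muscle sum ran from 34.9 to 830 CPM in YJZYT, 202 to 780 in Model, 703 to 3654 in SYT, 2914 to 3394 in YJT and 3899.8 to 5964 in Blank. The part of these tissues in the Postn values was not tested.

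The 6 genes other than Postn varied together from library to library. Over the 15 libraries, the 15 pairs among them had Pearson r of log2 CPM from 0.85 to 0.98, with a median of 0.92, and Spearman rho from 0.67 to 0.975. In two-sided permutation tests adjusted over 21 pairs, p ran from 1.91e-05, the adjusted value of the smallest p that 100000 resamples can give, to 0.000266 for r. For rho the adjusted p ran from 4.2e-05 to 0.0114. These permutations shuffled all 15 libraries regardless of group. No p was computed for the values below that leave out libraries or use deviations from the group means. The closest pair was Sparc with Ifitm5, at an r of 0.98, and the loosest was Bglap with Ibsp, at 0.85. Without the 2 libraries farthest from the median, r ran from 0.52 to 0.94, and without YJT3 and YJZYT3 from 0.52 to 0.94. As deviations from the group means, r ran from 0.84 to 0.99 with all libraries and from 0.63 to 0.98 without YJT3 and YJZYT3.

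The 6 pairs with Postn had r from 0.33 to 0.55 and rho from 0.24 to 0.55, and 1 of them, Bglap with Postn, passed the adjusted permutation tests (adjusted p 0.0434 for r and 0.0476 for rho). Without YJT3 and YJZYT3 the 6 values ran from -0.02 to 0.46. As deviations from the group means they ran from 0.72 to 0.93, and without YJT3 and YJZYT3 from 0.27 to 0.87. The difference between the Postn pairs and the other pairs was not tested.

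**Figure D4:**
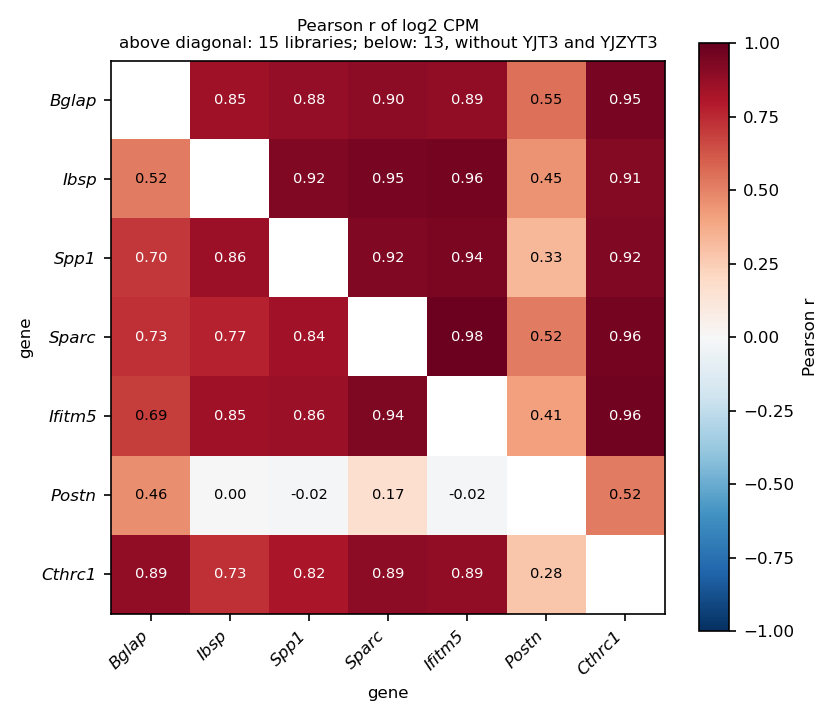
Pearson r of log2 CPM between each pair of the 7 genes, over 15 libraries above the diagonal and over 13 libraries, without YJT3 and YJZYT3, below it. Pairs without Postn stay between 0.52 and 0.94 below the diagonal, and pairs with Postn lie between -0.02 and 0.46 there.

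The libraries that were high or low in these genes were also high or low in Col1a1, the gene of the main chain of type I collagen. Col1a1 ran from 337 FPKM in YJZYT3 and 341 in YJT3 to 10571 in SYT3. Its r of log2 CPM was 0.98 with Sparc, 0.97 with Ifitm5, 0.95 with Cthrc1, 0.93 with Ibsp, 0.92 with Spp1, 0.90 with Bglap and 0.52 with Postn, given as a description over the 15 libraries. Taken as a log2 ratio to Col1a1 in the same library, Sparc had an SD of 0.29, against 1.22 for its log2 FPKM. The same SDs were 0.35 against 1.32 for Ifitm5, 0.43 against 1.18 for Cthrc1 and 0.52 against 1.38 for Ibsp. They were 0.59 against 1.02 for Spp1 and 0.66 against 0.93 for Bglap. For Postn the ratio was the more variable quantity, at 1.21 against 1.08, from -7.85 in YJZYT1 to -3.27 in YJT3. Sparc was level with Col1a1 on this per-length scale, at a mean log2 ratio of 0.07, and Bglap was at -0.30, Spp1 at -1.01 and Ibsp at -2.22. In the 13 libraries other than YJT3 and YJZYT3 the SD of the ratio ran from 0.29 for Sparc to 0.55 for Ibsp among the 6 genes, against 0.62 to 0.78 for their log2 FPKM, and for Postn it was 1.05 against 0.87. The r with Col1a1 was then 0.72 for Ibsp to 0.94 for Sparc, and 0.20 for Postn. In YJZYT3, where Col1a1 was lowest, Bglap and Spp1 had their highest ratios, at 1.12 and 0.26.

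**Figure D5:**
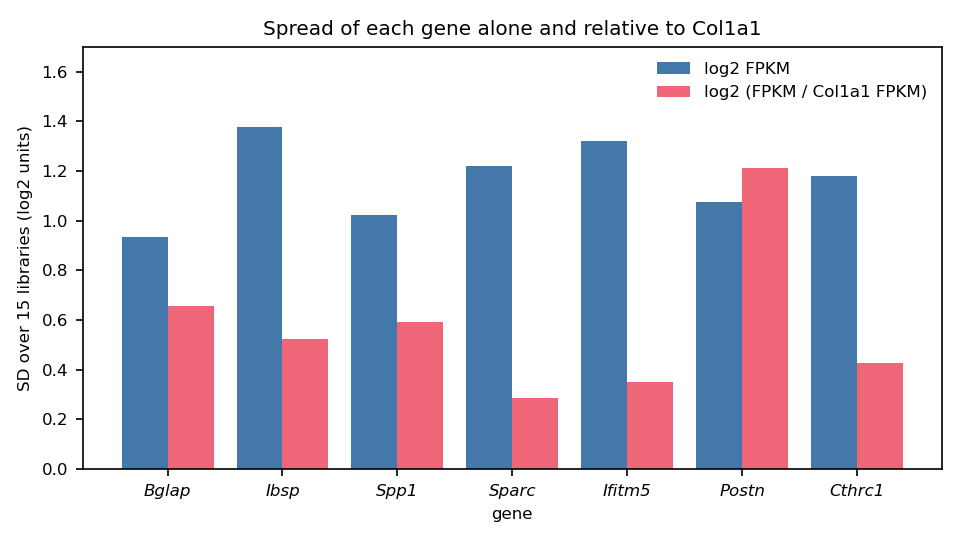
Standard deviation over the 15 libraries (log2 units) of each gene's log2 FPKM and of its log2 ratio to Col1a1 FPKM. The ratio has the smaller SD for 6 genes, down to 0.29 for Sparc, and the larger one for Postn, at 1.21 against 1.08.

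For each gene, the most similar genes were taken as those with the highest r of log2 CPM over the 15 libraries, among 8527 genes with a mean of at least 5 FPKM. For Sparc they were Fkbp10, Rcn3 and Cercam (each r 0.99), and for Ifitm5 Fkbp10, Podnl1 and Rcn3 (each r 0.99). Fkbp10 encodes a chaperone of collagen folding in the endoplasmic reticulum. For Cthrc1 they were Gja1 (0.98), Pls3 (0.98) and Serpinh1 (0.97), the last a collagen chaperone, and for Ibsp they were Pth1r, the parathyroid hormone receptor, Cdh11 and Mrc2 (each 0.97). For Spp1 they were Tax1bp3 (0.99), Serpine2 (0.97) and Gpx3 (0.97), and for Bglap Kazald1 (0.96), Gja1, the gap junction protein of bone cells (0.96), and Fkbp7 (0.95). Without YJT3 and YJZYT3 these values ran from 0.85, for Mrc2 with Ibsp, to 0.98. An r above 0.9 was held by 2.20% to 2.93% of the 8527 genes for Ibsp, Spp1, Sparc, Ifitm5 and Cthrc1, by 0.680% for Bglap and by 0.0352% for Postn.

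The genes most like Postn were Aspn (0.97), Aspnl1 (0.94) and Thbs2 (0.91), and without YJT3 and YJZYT3 their r was 0.95, 0.95 and 0.84. Aspn encodes asporin, a small leucine-rich proteoglycan that binds collagen, and Thbs2 encodes a matricellular thrombospondin. Aspnl1 may share reads with Aspn, so their values are uncertain as separate measurements. Aspn was at 24.6, 21.1 and 23.9 FPKM in the Blank libraries and 5.49, 8.57 and 13.9 in the Model libraries. SYT held 11.8, 6.44 and 14.5 FPKM, YJT 13.3, 25.0 and 8.62, and YJZYT 2.87, 2.38 and 1.22. Its high Blank, its high YJT2 and its low YJZYT libraries are those of Postn. Aspn was picked here by its r with Postn over these same libraries. Neither this likeness nor the fold change of Aspn is therefore separate support for the Postn values. In YJZYT against Blank, Aspn fell by 3.29 (SE 0.51) on the log2 scale with an edgeR adjusted p of 0.0313. That call was lost without any single Blank library, without YJZYT2 or YJZYT3, and without YJT3 and YJZYT3 together.

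The other genes of the matrix and its regulation were taken as lists of other matrix and mineral proteins, collagens, receptors of the 7 proteins, modifying enzymes and osteoblast regulators, with Dmp1 and Mepe as the SIBLING genes tested besides Ibsp and Spp1. In Model against Blank, 0 of these 73 genes passed in edgeR. Values were higher in 11 and lower in 14 of 25 other matrix proteins, and higher in 5 and lower in 2 of 7 collagens. The median log2 fold changes of these lists were -0.19 and 0.23, against 0.02 for all genes tested. Receptors had 3 of 11 higher, modifying enzymes 9 of 14 and osteoblast regulators 10 of 14, with medians of -0.05, 0.05 and 0.23. The osteoblast regulators list also counted Sparcl1, named below as a relative of Sparc. Dmp1 and Mepe were at -0.21 and -0.12. The smallest unadjusted p in several lists belonged to genes that did not pass: Sparcl1, a relative of Sparc, had a log2 fold change of -1.59 (SE 0.55, edgeR adjusted p 0.436), Mfap4, counted at 1.64 CPM in Blank and 0.209 in Model, -2.96 (SE 1.02, adjusted p 0.436) and Tgm2, a cross-linking transglutaminase, -0.71 (SE 0.29, adjusted p 0.526). Lef1, a Wnt pathway factor, was at 0.86 (SE 0.39, adjusted p 0.599).

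In YJZYT against Model, values were lower in 23 of 25 other matrix proteins, 7 of 7 collagens, 10 of 11 receptors, 10 of 14 modifying enzymes and 13 of 14 osteoblast regulators, and 0 passed in edgeR. The list medians were -0.79, -0.91, -0.66, -0.45 and -0.56, and without YJT3 and YJZYT3 they were -0.56, -0.45, -0.37, -0.25 and -0.19. In YJT against Model the medians were -0.03, -0.74, -0.55, -0.38 and -0.64, and without YJT3 and YJZYT3 they were 0.35, -0.30, -0.33, -0.19 and -0.31. The other matrix proteins turned there, from 11 of 25 higher to 17 of 25 higher. Dmp1 and Mepe, the osteocyte members of the SIBLING family, had log2 fold changes of -1.56 and -1.62 in YJT against Model and did not pass (edgeR adjusted p 0.757 and 0.749), and without YJT3 and YJZYT3 they were at -1.10 and -1.20. In SYT against Model, values were higher in 22 of 25 other matrix proteins, 6 of 7 collagens and 5 of 11 receptors. They were also higher in 13 of 14 modifying enzymes and 11 of 14 osteoblast regulators, and 0 passed in edgeR. The list medians were 0.42, 0.30, -0.01, 0.13 and 0.22, against 0.02 for all genes tested. List values without SYT3 are not given here.

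Against Blank, 2 of the 73 genes passed in YJZYT, where edgeR called 0.374% of all genes, and both were lower. They were Aspn and Col3a1, the fibrillar collagen of soft connective tissue, which fell by 2.53 (SE 0.49, edgeR adjusted p 0.0465) on the log2 scale. The Col3a1 call was kept without YJZYT1 and lost without each of the other libraries of the comparison in turn. Neither passed without YJT3 and YJZYT3, with Aspn at -3.03 (edgeR adjusted p 0.108) and Col3a1 at -2.21 (adjusted p 0.196). The low osteoblast, osteocyte, osteoclast and chondrocyte marker sums of YJT3 and YJZYT3 went along with the low values in YJT and YJZYT. Some of those markers, such as Col1a1, Dmp1 and Mepe, are also in the lists above, so the sums and these values share genes. The erythroid sum was 73859 CPM in YJZYT3, 70507 in YJZYT2 and 28654 in YJT3. Other blood-cell sums differed by type. In YJT3 and YJZYT3 the neutrophil sum was 15896 and 20753 CPM, against 2202 to 35409 elsewhere. The megakaryocyte and platelet sum was 1012 and 1076 CPM, against 82.9 to 1200 elsewhere. B cell sums there were 219 and 397 CPM, against 315 to 823 elsewhere, and macrophage sums 286 and 215 CPM, against 255 to 739. The part of these cell types in the low values was not tested beyond the values given without these libraries.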

How the data were processed

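Trizol-extracted RNA was selected for poly(A) tails and fragmented, the second strand was marked with dUTP, and adapters with molecular identifiers were ligated before paired-end sequencing, per the labels' protocols. Tools named in the submitters' processing notes, with no role, are HISAT2 2.0.4, StringTie 1.3.4d, cutadapt 1.9, edgeR, DESeq2 and UMI-tools. The sources used here do not give the build, annotation or counting step, so overlapping genes and near-identical copies may share reads. Whole-number counts and FPKM values per gene were used as deposited by the authors.

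Counts were fitted with edgeR 4.0.16 in R 4.3.3: filterByExpr (17657 genes tested, 4811 left out), TMM scaling and 1 robust quasi-likelihood fit, in which each group has a mean and the 15 libraries share an estimate of the spread. Tests were two-sided, with Benjamini-Hochberg adjustment over all genes tested and a threshold of 0.05. The script was tested on simulated data. CPM values used TMM scaling, and log2 CPM a prior count of 2. Levels between genes were compared as FPKM only. The genes and lists were chosen with earlier results of these data known. Named were the 7 genes, the up to 2 genes of each partner list with the smallest p in Model against Blank, members past the threshold elsewhere, and the 3 genes most like each of the 7; Dmp1 and Mepe were named after their values were seen. Col1a2 and a few other listed symbols are not analysed here. Alternatives were other scalings and filters, DESeq2 1.42.0, limma 3.58.1 on log2(FPKM + 1) or log2(FPKM + 0.1), keeping genes that reach 1 FPKM in at least 3 libraries, a replicate block and left-out libraries.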

Additional observations from a re-analysis of the deposited data

How the results depend on the processing

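Of 512 alternative values for single genes, 480 kept their direction and side of the threshold, 4 passed where edgeR did not, and 28 reversed, in 12 results that did not pass. The number of the 7 genes called became 1, Postn, with DESeq2 over the 5 groups, in YJZYT against YJT and in YJZYT against Blank, and with both limma fits in YJZYT against Blank. In SYT against Model, values turned with no scaling factors for Postn (-0.11) and Cthrc1 (-0.12). They turned with limma on log2(FPKM + 1) for Spp1 (-0.11), Sparc (-0.14), Postn (-0.19) and Cthrc1 (-0.36), and on log2(FPKM + 0.1) for the same genes (-0.11, -0.14, -0.20 and -0.37). Without YJT3 and YJZYT3, YJZYT against Model turned for Ibsp (0.061) and Ifitm5 (0.12). The cause was not tested.

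With 1 library left out, Model against Blank ran from -0.032 to 0.61 for Bglap, -0.68 to 0.19 for Ibsp, -0.31 to 0.85 for Ifitm5 and -0.0087 to 0.95 for Cthrc1, and turned without Blank1, without Blank2 for Ibsp, and for Ifitm5 also without Model3. SYT against Model ran from -0.94 to 0.19 for Bglap, -0.52 to 0.65 for Spp1, -0.44 to 0.52 for Sparc, -0.24 to 0.85 for Ifitm5, -0.39 to 0.49 for Postn and -0.72 to 0.52 for Cthrc1. It turned without SYT3, for Postn and Cthrc1 also without Model1, and for Bglap without SYT2 or Model3. YJZYT against Model ran from -1.17 to 0.061 for Ibsp and -1.12 to 0.12 for Ifitm5, turning without YJZYT3. No direction turned in YJT against Model, where values ran from -2.04 to -0.35 for Ibsp and -2.14 to -0.84 for Spp1.

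Same-numbered libraries of different groups did not vary together (r of -0.42 to 0.40 over 30 pairs, 9 of them over 0.1), and 4 of 15 libraries correlated best with their own number, so the numbers were not treated as pairs. With the replicate number as a block, 0 of the 7 genes were called in any comparison, as without it. All genes called went from 4 to 0 in Model against Blank and from 66 to 6 in YJZYT against Blank, where Postn had -2.31 and an edgeR adjusted p of 0.137. The block also ended the calls of Aspn (adjusted p 0.0638) and Col3a1 (0.0932) there, and Col3a1 was not called at a mean FPKM of at least 5 (0.0607) or with the 6 libraries alone (0.0557). Counts over all genes also depended on the tool: in Model against Blank DESeq2 called 289, and in YJZYT against Blank 729. limma on log2(FPKM + 1) called 40 and 313 in these comparisons. In YJZYT against Blank 19 were called at a mean FPKM of at least 5, 0 without Blank1, Blank3, YJZYT2 or YJZYT3, 8 without Blank2, 168 without YJZYT1 and 1 without YJT3 and YJZYT3. A Col1a2 reference could not be run, and Col5a2, chosen after seeing the data, gave a median SD of the log2 ratio of 0.49 against 0.52.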
